A study of Homo sapiens with 30 samples.

Results

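The genes described here build the adherens junction and the desmosome, the adhesive contacts that hold neighbouring epithelial cells together. They were chosen by name: every probe set whose platform symbol is exactly CDH1, CTNNA1, CTNNB1, CTNND1, JUP, DSP, DSG2, DSC2, PKP2 or PKP3 was taken. This gave 16 probe sets for 9 of the 10 genes, out of 22215 tested probe sets and 11963 named genes. CTNND1 (p120-catenin, which stabilises E-cadherin at the membrane) is named on 3 probe sets, each of which also carries the symbol of a readthrough transcript, so no value is given for it. CDH1, DSC2, PKP2 and PKP3 each had 2 probe sets and CTNNA1 had 4.

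The RNA came from Caco-2 and HT29-MTX cells grown together, 75% and 25% of the cells, for 14 days on Transwell inserts. Caco-2 is a colon carcinoma line that forms an enterocyte-like layer with mature cell junctions, and HT29-MTX is a mucus-producing colon carcinoma line. Each of the 10 groups had 3 biological replicates and 1 Affymetrix array per replicate. The study title asks how human cells respond to multi-walled carbon nanotubes (MWCNT) and titanium dioxide nanobelts (TiO2-NB). For each of the times, 1 h and 24 h, control wells received fresh medium, and exposed wells received MWCNT or TiO2-NB from the apical side at 10 or 100 µg/ml. All groups shared the same pair of tumour lines, so the layer is a model of the intestinal epithelium without stroma, blood vessels or immune cells, and whether a change lies in Caco-2 or in HT29-MTX cells cannot be told apart. In such bulk RNA, fewer cells of a type and less RNA per cell cannot be told apart either.

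In the adherens junction, E-cadherin (CDH1) of adjacent cells binds across the gap. Inside the cell its tail binds beta-catenin (CTNNB1), which links it through alpha-catenin (CTNNA1) to actin. Beta-catenin also serves as the transcriptional co-activator of canonical Wnt signalling, which maintains the intestinal crypt. In the desmosome the cadherins are desmogleins and desmocollins (DSG2 and DSC2 in simple epithelia), and plakoglobin (JUP) and plakophilins (PKP2, PKP3) couple them to desmoplakin (DSP), which anchors keratin filaments. Plakoglobin, a close relative of beta-catenin, can take part in both kinds of junction.

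A level here is the deposited log2 value of a probe set, a difference is the mean of the 3 exposed arrays minus that of the 3 controls on this scale, and ± after a difference is the standard error from limma. A probe set was called when its Benjamini-Hochberg adjusted p over all 22215 probe sets lay under 0.05. The 4 exposed groups of a time share their controls, so their differences are not independent. The array medians lay between 6.45 and 6.49, and arrays of one group correlated at 0.997 or more. Of 12 measured enterocyte markers, 11 lay above the median of all probe sets, as did 7 of 11 goblet markers, 4 of 10 leukocyte markers, 2 of 8 fibroblast markers and 1 of 7 endothelial markers. The mean enterocyte marker level lay between 10.37 and 10.52 on every array, and no enterocyte marker was called in limma against control (at most 3 of 12 had an unadjusted p under 0.05). Of 11 goblet markers 1 was called, higher with TiO2-NB at 100 µg/ml for 24 h. Of 10 leukocyte markers 1, 1, 1 and 2 were called higher in the 4 exposed groups of 1 h and 1 with TiO2-NB at 100 µg/ml for 24 h. Of these markers LYZ (mean level 11.31), AIF1 (8.76), CD14 (6.90) and FCER1G (6.47) lay above the median of all probe sets. The others lay below it, among them PTPRC, the defining surface antigen (3.63). No fibroblast or endothelial marker was called (at most 2 of 8 and 1 of 7 had an unadjusted p under 0.05 in limma). The mean goblet marker level was 8.35 to 8.40 with MWCNT at 100 µg/ml for 1 h, below the 8.41 to 8.50 of its controls (4 of 11 markers had an unadjusted p under 0.05 and none was called in limma). It was 8.50 to 8.56 with TiO2-NB at 100 µg/ml for 24 h, above the 8.42 to 8.50 of its controls. The mean enterocyte marker level was 10.46 to 10.49 with MWCNT at 10 µg/ml for 1 h, just above the 10.37 to 10.46 of its controls. The part of these markers in the results was not tested.

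The 18S ribosomal RNA probe sets moved with exposure at 1 h and are given beside the member calls. Their mean level was 8.30, 8.32 and 8.49 on the 3 control arrays, between 8.97 and 9.18 with MWCNT at 10 µg/ml, and 8.92, 9.66 and 9.33 with MWCNT at 100 µg/ml. It was 8.94, 9.47 and 8.12 with TiO2-NB at 10 µg/ml and 8.50, 9.21 and 8.71 at 100 µg/ml. Exposed arrays were thus above all controls in 3 of the 4 groups (exact two-sided permutation p = 0.1 in each, the smallest that 3 against 3 allows), while the groups overlapped for TiO2-NB at 10 µg/ml (exact p = 0.4). At 24 h the differences were between 0.065 and 0.27.

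In the core of the adherens junction 1 gene, CTNNB1, gave a call against control, and CTNNA1 and CDH1 gave none. CTNNB1 lay at 10.84, 10.76 and 10.89 on the 1 h control arrays, at 11.06, 10.97 and 10.92 with MWCNT at 10 µg/ml, and at 10.92, 11.00 and 11.00 at 100 µg/ml. With TiO2-NB it lay at 10.92, 11.02 and 10.87 at 10 µg/ml and at 10.91, 10.99 and 10.99 at 100 µg/ml. Every exposed array was above all controls in each group but TiO2-NB at 10 µg/ml, where 1 array fell within the control range. The difference passed the test with MWCNT at 10 µg/ml, where CTNNB1 rose by 0.15 ± 0.046 (1.11-fold, adjusted p = 0.0483). The other groups gave 0.15 ± 0.046 (adjusted p = 0.0549), 0.11 ± 0.046 (adjusted p = 0.18) and 0.14 ± 0.046 (adjusted p = 0.0723). The call was lost without control replicate 1 (adjusted p = 0.0847), control replicate 2 (0.218), exposed replicate 1 (0.249) or exposed replicate 2 (0.0862). It was also lost with array weights (0.0756), with replicate numbers as a block (0.0537) and in a fit of the compared groups only (0.283). With the 18S level as a covariate the difference was 0.087 (adjusted p = 0.41). With MWCNT at 100 µg/ml a call was gained without control replicate 3 (0.0426) or exposed replicate 1 (0.0367), and with the dimmest probe sets left out (0.0293), an intensity trend (0.0192), array weights (0.0358) or 1 probe set per gene (0.0395). With TiO2-NB at 100 µg/ml a call was gained with the dimmest probe sets left out (0.0397) or the trend (0.0283).

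At 24 h CTNNB1 lay between 10.78 and 10.93 on all 15 arrays, and the 4 differences, from 0.029 to 0.087, did not pass. The order of its 10 group means put the 4 exposed groups of 1 h highest and both controls lowest. No step between neighbours in that order exceeded the spread within groups (largest step 0.029, within-group SD 0.052).

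CTNNA1, the link to actin, varied little. Its brightest probe set, 210844_x_at, read 11.52, 11.51 and 11.48 on the 1 h controls and stayed between 11.43 and 11.59 on all 30 arrays. Its 8 differences from control ranged from -0.03 to 0.03, and their 95% confidence intervals from -0.10 to 0.11. The probe sets 200765_x_at and 200764_s_at gave differences between -0.06 and 0.02 and between -0.04 and 0.07. The dimmest, 215883_at, spread from 5.60 to 6.14 over the arrays and differed most from control with TiO2-NB at 100 µg/ml for 1 h (0.26 ± 0.097, adjusted p = 0.103). With TiO2-NB at 100 µg/ml for 1 h, then, 215883_at lay above all controls and 200765_x_at below all of them.

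CDH1, the adhesive cadherin itself, was measured by a bright and a dimmer probe set, and neither gave a call against control. The bright one, 201131_s_at, read 12.93, 12.95 and 12.93 on the 1 h controls. It read 13.03, 12.94 and 13.00 with MWCNT at 10 µg/ml, 13.00, 13.01 and 13.10 at 100 µg/ml, 12.88, 12.98 and 12.91 with TiO2-NB at 10 µg/ml and 12.99, 12.95 and 12.99 at 100 µg/ml. The MWCNT arrays at 100 µg/ml were above all controls, by 0.10 ± 0.039 (adjusted p = 0.135), and none of its 8 differences passed. At 24 h it lay between 12.93 and 13.06 throughout.

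The dimmer CDH1 probe set, 201130_s_at, lay apart between the particles at 10 µg/ml for 1 h, though this difference did not pass the test. It read 8.04, 8.09 and 7.74 in controls, 8.36, 8.13 and 7.98 with MWCNT at 10 µg/ml, and 8.27, 8.08 and 8.27 at 100 µg/ml. With TiO2-NB this probe set read 7.88, 7.75 and 7.72 at 10 µg/ml and 7.87, 7.98 and 8.18 at 100 µg/ml. At 10 µg/ml all MWCNT arrays were above all TiO2-NB arrays, as they were for 8.53% of all probe sets (difference 0.37, limma adjusted p = 0.138). Its smallest adjusted p against control was 0.142, but the moderated F-test over control and the 4 exposures at 1 h called this probe set (adjusted p = 0.0397). The bright probe set was not called by that F-test (adjusted p = 0.237). The F-test at 1 h called 1 of 16 member probe sets, this one, where 8.52% of all probe sets were.

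**Figure D1:**
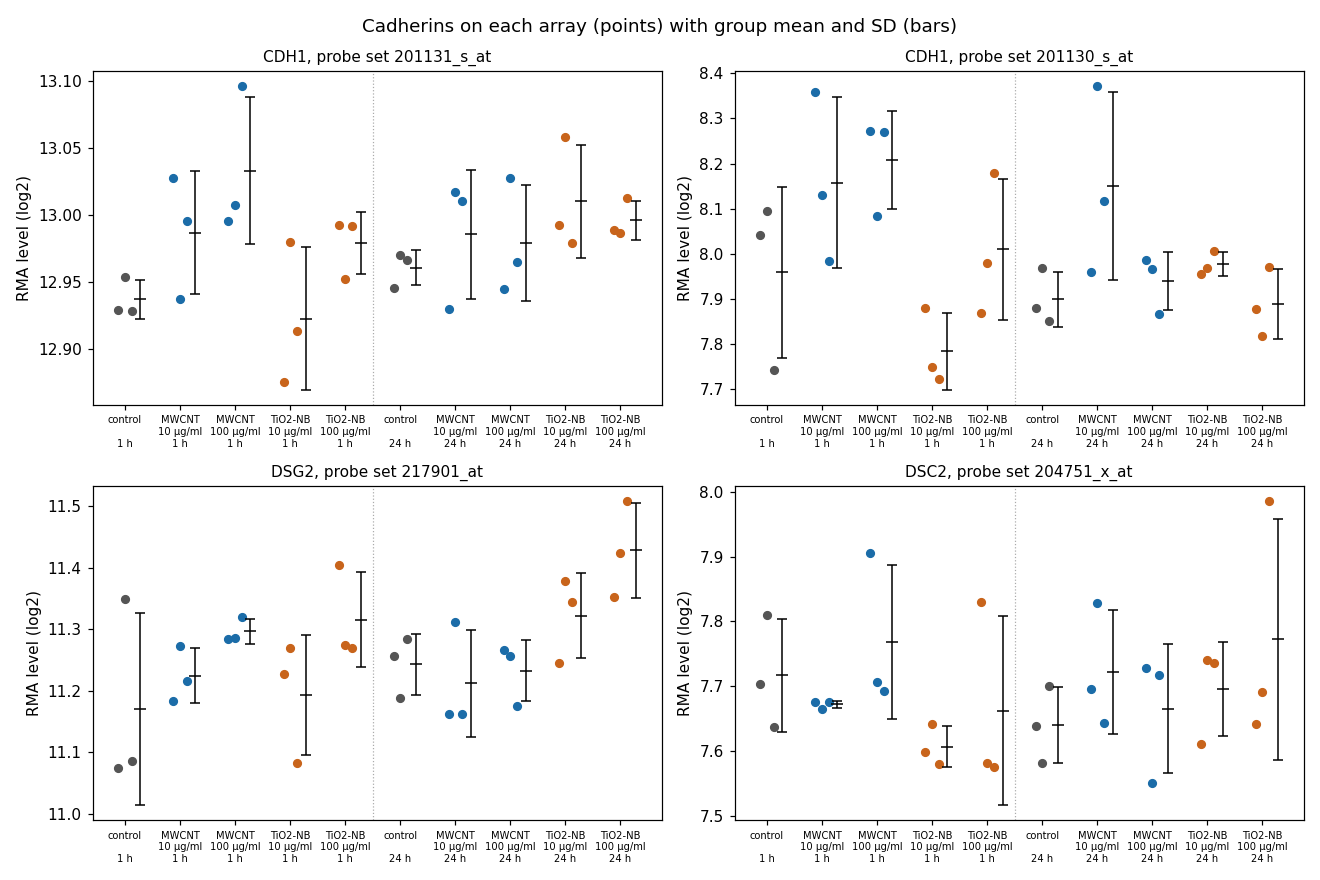
Log2 level (vertical axis) of both CDH1 probe sets, of DSG2 and of the brighter DSC2 probe set on each of the 30 arrays, by group (horizontal axis). Points are arrays, bars are group means and SD (n = 3); the mean of TiO2-NB at 10 µg/ml and 1 h is the lowest for CDH1 201130_s_at (arrays from 7.72 to 7.88), and that of TiO2-NB at 100 µg/ml and 24 h is the highest for DSG2 (arrays from 11.35 to 11.51).

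In the desmosomal plaque JUP, DSP and PKP2 gave calls against control at 1 h, and PKP3 gave none. Plakoglobin (JUP), which joins the cadherin tails to desmoplakin, was at 10.43, 10.54 and 10.38 on the 1 h control arrays. It reached 10.60, 10.65 and 10.71 with MWCNT at 100 µg/ml and 10.58, 10.66 and 10.64 with TiO2-NB at 100 µg/ml, above every control. At 10 µg/ml it read 10.65, 10.53 and 10.59 with MWCNT and 10.58, 10.66 and 10.43 with TiO2-NB, overlapping the controls. JUP rose by 0.20 ± 0.051 with MWCNT at 100 µg/ml (1.15-fold, adjusted p = 0.0156). With TiO2-NB at the same dose the rise was 0.18 ± 0.051 (1.13-fold, adjusted p = 0.0264). The differences at 10 µg/ml were 0.14 ± 0.051 (adjusted p = 0.0973) and 0.11 ± 0.051 (adjusted p = 0.23).

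In every exposed group of 1 h the array with the lowest JUP also had the lowest 18S. With TiO2-NB at 10 µg/ml this was replicate 3, with 10.43 for JUP and 8.12 for 18S. With MWCNT at 10 µg/ml it was replicate 2 (10.53 and 8.97). At 100 µg/ml it was replicate 1 with MWCNT (10.60 and 8.92) and with TiO2-NB (10.58 and 8.50). Among the 1 h controls it was the other way: replicate 3 had the lowest JUP (10.38) and the highest 18S (8.49). A slope of JUP on 18S within groups was fitted only as part of the 18S covariate fit, and the slope was not itself tested. With the 18S level as a covariate the JUP differences at 100 µg/ml were 0.071 for MWCNT (adjusted p = 0.623) and 0.12 for TiO2-NB (adjusted p = 0.116). The MWCNT call was lost without control replicate 1 (adjusted p = 0.0535), control replicate 3 (0.0792) or exposed replicate 3 (0.084). The TiO2-NB call was lost without control replicate 1 (0.0742), control replicate 3 (0.142), exposed replicate 2 (0.11) or exposed replicate 3 (0.0733). Without replicate 3 of TiO2-NB at 10 µg/ml that group gained a call (0.17, adjusted p = 0.0484).

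At 24 h JUP lay in a narrow band, between 10.32 and 10.49 on all 15 arrays, with differences from control between -0.03 and 0.05. In the order of its 10 group means the 4 exposed groups of 1 h came on top. The step of 0.11 below them, down to the 1 h control, was the only 1 of 9 steps that exceeded the within-group SD of 0.060.

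Desmoplakin (DSP), the keratin anchor, was the member that changed with time in the cultures. It stood at 12.10, 12.27 and 12.09 in controls at 1 h and at 12.47, 12.41 and 12.51 in controls at 24 h, so that the groups did not overlap. DSP thus rose by 0.31 ± 0.063 in medium alone (1.24-fold, adjusted p = 8.78e-04). The call held without any single array (highest adjusted p = 0.00789) and with the 18S covariate (adjusted p = 0.00109), and 18S itself differed by 0.052 between the controls (exact p = 0.7).

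Exposure for 1 h moved DSP the same way with MWCNT at 100 µg/ml. Those arrays read 12.34, 12.35 and 12.44, above every 1 h control, and DSP rose by 0.22 ± 0.063 (1.17-fold, adjusted p = 0.028). MWCNT at 10 µg/ml gave 12.45, 12.24 and 12.24 (0.16 ± 0.063, adjusted p = 0.15), TiO2-NB at 10 µg/ml 12.10, 12.25 and 12.14 (0.01 ± 0.063, adjusted p = 0.94), and TiO2-NB at 100 µg/ml 12.27, 12.22 and 12.38 (0.14 ± 0.063, adjusted p = 0.202). The call for MWCNT was lost without control replicate 1 (adjusted p = 0.0973), control replicate 3 (0.113), exposed replicate 2 (0.0542) or exposed replicate 3 (0.123), and it was 0.18 with adjusted p = 0.342 under the 18S covariate. At 24 h DSP lay between 12.33 and 12.59 in all groups, and its differences from the 24 h control, between -0.04 and 0.07, did not pass. All 5 groups of 24 h stood above all 5 groups of 1 h in the order of means, though the arrays of neighbouring groups overlapped at each step. The step from TiO2-NB at 100 to TiO2-NB at 10 µg/ml at 1 h (0.12) was the 1 of 9 above the within-group SD of 0.077.

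Plakophilin 2 (PKP2), which binds desmoplakin in the outer plaque, gave a call in its brighter probe set. Probe set 207717_s_at read 8.40, 8.46 and 8.63 on the 1 h controls, 8.77, 8.68 and 8.82 with MWCNT at 10 µg/ml, and 8.82, 8.75 and 8.92 at 100 µg/ml. With TiO2-NB it read 8.57, 8.66 and 8.61 at 10 µg/ml and 8.77, 8.57 and 8.78 at 100 µg/ml. Both MWCNT groups lay above all controls, and PKP2 rose by 0.34 ± 0.095 at 100 µg/ml (1.26-fold, adjusted p = 0.0303). At 10 µg/ml the MWCNT difference was 0.26 ± 0.095 (adjusted p = 0.102). The TiO2-NB differences were 0.12 ± 0.095 (adjusted p = 0.514) and 0.21 ± 0.095 (adjusted p = 0.189).

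The PKP2 call was lost without control replicate 1 (adjusted p = 0.113), control replicate 2 (0.0892), exposed replicate 1 (0.0569) or exposed replicate 3 (0.129). With the 18S covariate its difference was 0.39 (adjusted p = 0.123). The dimmer probe set 214154_s_at, between 5.15 and 5.58 on all arrays, gave -0.02 ± 0.098 in the same comparison (adjusted p = 0.932), so the rise rests on 1 of the 2 probe sets.

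At 24 h PKP2 207717_s_at read 8.48, 8.30 and 8.39 in controls and 8.49, 8.73 and 8.93 with TiO2-NB at 100 µg/ml. All exposed arrays were above all controls, the lowest by a narrow margin, and the difference of 0.33 ± 0.095 missed the threshold (adjusted p = 0.0563). MWCNT at 100 µg/ml gave 8.77, 8.50 and 8.63 (0.24 ± 0.095, adjusted p = 0.892). The remaining groups gave 8.44, 8.60 and 8.46 with MWCNT at 10 µg/ml and 8.56, 8.77 and 8.45 with TiO2-NB at 10 µg/ml. Without TiO2-NB replicate 1, which lay lowest of its group, the 24 h difference was 0.44 (adjusted p = 0.00445). It also passed with the dimmest probe sets left out (adjusted p = 0.0347), an intensity trend (0.0407) or array weights (0.0107). PKP2 207717_s_at and CTNNB1 were the only member probe sets above control in all 8 exposed groups.

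PKP3, a plakophilin of simple and stratified epithelia, gave no call. Its brighter probe set, 209873_s_at, read 9.88, 10.05 and 9.93 in 1 h controls and lay between 9.73 and 10.05 on all 30 arrays. Its 8 differences ranged from -0.10 to 0.00, with confidence intervals from -0.21 to 0.12. The dimmer probe set, 209872_s_at, ranged from 6.98 to 7.30 and gave differences between -0.01 and 0.08. JUP and PKP2 rose while PKP3 gave no call, but the difference between these genes was not itself tested.

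**Figure D2:**
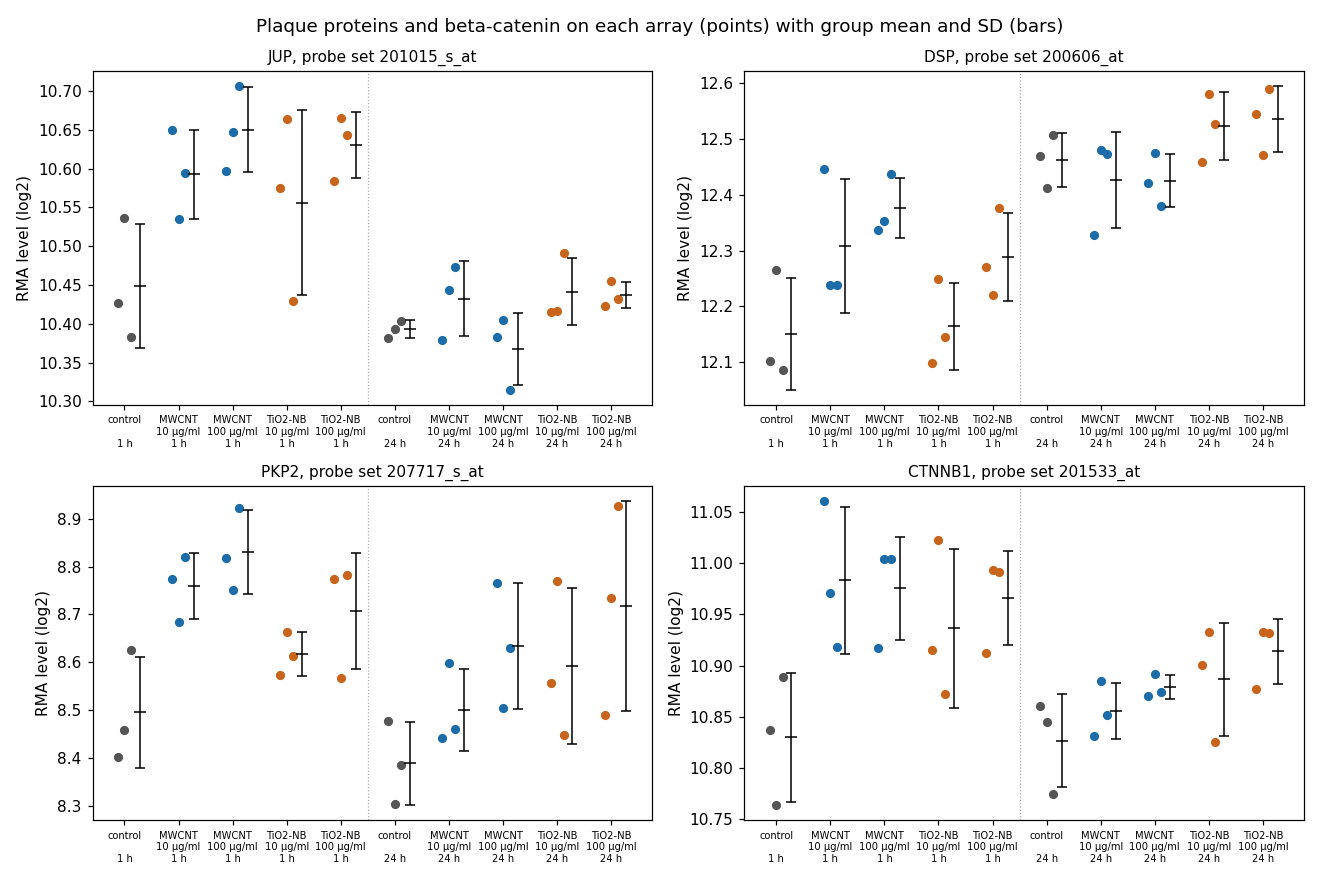
Log2 level (vertical axis) of CTNNB1, JUP, DSP and PKP2 207717_s_at on each of the 30 arrays, by group (horizontal axis). Points are arrays, bars are group means and SD (n = 3); JUP lies above all 1 h controls in both groups of 100 µg/ml at 1 h (10.58 to 10.71) and between 10.32 and 10.49 at 24 h, while DSP is higher in every group of 24 h than in any group of 1 h by its mean.

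The upstream sequences of JUP and DSP are shown, the genes called most often when the control time comparison is counted. PKP2, called with both at 1 h with MWCNT at 100 µg/ml, had no entry among the windows used. The sequences are RefSeq windows of the 250 bases before the annotated start, on GRCh38.p14, written 5′ to 3′ on the gene's strand. DSP lies on the plus strand (chr6:7541421-7541670) and JUP on the minus strand with 2 annotated starts (chr17:41785977-41786226 and chr17:41786712-41786961). Capitals mark CAGGTG or its reverse complement CACCTG, the E-box letters to which repressors of the SNAI and ZEB families bind.
DSP: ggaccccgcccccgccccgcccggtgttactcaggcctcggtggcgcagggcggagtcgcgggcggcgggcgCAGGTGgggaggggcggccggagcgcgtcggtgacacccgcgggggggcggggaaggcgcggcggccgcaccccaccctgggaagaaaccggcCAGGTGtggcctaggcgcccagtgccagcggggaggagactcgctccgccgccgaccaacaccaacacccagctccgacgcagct
JUP, start in the window chr17:41785977-41786226: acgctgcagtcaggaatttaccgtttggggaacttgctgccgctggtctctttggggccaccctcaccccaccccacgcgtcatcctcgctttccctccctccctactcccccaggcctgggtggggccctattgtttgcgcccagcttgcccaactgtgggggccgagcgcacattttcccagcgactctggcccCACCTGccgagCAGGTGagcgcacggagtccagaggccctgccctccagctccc
JUP, start in the window chr17:41786712-41786961: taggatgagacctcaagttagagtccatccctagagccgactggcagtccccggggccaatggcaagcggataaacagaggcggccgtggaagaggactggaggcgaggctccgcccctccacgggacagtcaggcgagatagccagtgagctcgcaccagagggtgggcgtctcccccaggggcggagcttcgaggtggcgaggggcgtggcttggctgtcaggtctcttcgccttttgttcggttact

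In the DSP window CAGGTG began 178 and 85 bases before the start, and in the JUP window at chr17:41785977-41786226 54 and 43 bases before it. The other JUP window held none. On either strand, 17.5% of all 35116 windows of this length contained CAGGTG, against 4 of the 11 windows of 6 members with an entry. The GC box letters GGGCGG, bound by SP1-type factors, occurred in 8 of the 11 windows and in 42.6% of all. They stood at 7 places in the DSP window and at 139 and 69 bases in the JUP window at chr17:41786712-41786961, and the CAGGTG matches did not overlap them. The grainyhead letters AACCNGTT were in none of the 11 windows and in 1.49% of all. A match describes letters in a window and not a bound site. CDH1, PKP2 and PKP3 had no entry among the windows used.

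The desmosomal cadherins gave no call. Desmoglein 2 (DSG2) read 11.08, 11.35 and 11.09 on the 1 h controls and between 11.08 and 11.40 on the 12 exposed arrays of 1 h, so the groups overlapped in every comparison. At 24 h it read 11.26, 11.19 and 11.28 in controls, 11.16, 11.31 and 11.16 with MWCNT at 10 µg/ml and 11.27, 11.26 and 11.18 at 100 µg/ml. With TiO2-NB it read 11.24, 11.38 and 11.34 at 10 µg/ml and 11.35, 11.42 and 11.51 at 100 µg/ml. The TiO2-NB arrays at 100 µg/ml were above all controls and all MWCNT arrays of that dose. Neither difference passed the test: 0.19 ± 0.066 against control (adjusted p = 0.158), and -0.20 ± 0.066 for MWCNT minus TiO2-NB at 100 µg/ml (adjusted p = 0.136). At 1 h calls at 100 µg/ml were gained without control replicate 2, the high one: 0.22 with MWCNT (adjusted p = 0.0401) and 0.24 with TiO2-NB (adjusted p = 0.0225).

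Desmocollin 2 (DSC2), the partner cadherin, had 2 probe sets of very different signal. The brighter, 204751_x_at, read 7.70, 7.81 and 7.64 on the 1 h controls and lay between 7.55 and 7.99 on all arrays, with differences from control between -0.11 and 0.13 (smallest adjusted p = 0.485). The dimmer, 204750_s_at, lay between 3.23 and 3.78 with differences between -0.14 and 0.12. For DSC2 changes of up to about 0.30 on the log2 scale, the edge of the confidence intervals of the brighter probe set, were within the error.

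Read together by comparison, the calls at 1 h all pointed up. With MWCNT at 10 µg/ml 1 of 16 member probe sets was called (CTNNB1), where 6.46% of all probe sets were, and with MWCNT at 100 µg/ml 3 of 16 were called (JUP, DSP and PKP2), where 7.78% were. With TiO2-NB at 10 µg/ml 0 of 16 were called (2 had an unadjusted p under 0.05 in limma), where 7.84% of all were, and with TiO2-NB at 100 µg/ml 1 of 16 was called (JUP), where 8.43% were. The members lay above zero in 11, 11, 8 and 11 of 16 probe sets, with medians of 0.058, 0.080, -0.0071 and 0.046 against -0.012, -0.0081, 0.0051 and 0.0015 over all probe sets. Of the calls over all probe sets, more were lower than higher in each of these comparisons (3.90% lower and 2.56% higher with MWCNT at 10 µg/ml, 4.27% and 3.51% at 100 µg/ml, 5.24% and 2.61% with TiO2-NB at 10 µg/ml, and 5.78% and 2.65% at 100 µg/ml).

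A fit of the compared groups alone left none of these 5 calls (adjusted p from 0.111 to 0.283), and neither did the 18S covariate. Over all probe sets, the calls with MWCNT at 100 µg/ml for 1 h went from 1729 to 112 and to 426 in these fits. The 18S level itself moved with exposure, so the covariate fit cannot separate 18S from exposure.

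Groups that did not overlap were also counted. All exposed arrays were above all controls for 2, 5, 1 and 3 of the 16 probe sets, in the same order of groups, where 9.87%, 9.91%, 10.1% and 9.94% of all probe sets were. They were below all controls for 1 of 16 with TiO2-NB at 100 µg/ml (CTNNA1 200765_x_at, by 0.04), where 13.7% of all were, and for 0 of 16 in the other groups, where 13.5%, 11.4% and 12.3% were.

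At 24 h no member was called in limma against control. The counts were 0 of 16 with MWCNT at 10 and 100 µg/ml, where 0.0045% and 0.009% of all probe sets were called, and 0 of 16 with TiO2-NB at 10 and 100 µg/ml, where 0.0585% (0.0225% higher, 0.036% lower) and 3.53% were. An unadjusted p under 0.05 was reached by 1, 1, 1 and 2 of 16. All exposed arrays were above all controls for 0, 2 and 3 of 16 probe sets in the first 3 of these groups, where 6.55%, 6.98% and 7.36% of all were. They were below all controls for 1, 0 and 0 of 16 (PKP3 209873_s_at), where 5.64%, 7.23% and 6.89% were. The TiO2-NB exposure at 100 µg/ml had 7 of 16 member probe sets with all exposed arrays above all controls, where 13% of all probe sets had them so (0 of 16 were below, against 9.48%). These were both PKP2 probe sets, JUP, CTNNB1, DSG2, CDH1 201131_s_at and CTNNA1 200764_s_at. Their differences ran from 0.04 to 0.33, and none passed the test. On the same arrays the 28S level was below all controls, 8.48 to 8.61 against 8.67 to 8.76 (by -0.17), and the end probe sets of ACTB (3′ by 0.10, 5′ by 0.13) and GAPDH (3′ by 0.044, 5′ by 0.039) were above all controls. The exact permutation p was 0.1 for each of these 5, and their part in the member counts was not tested. The F-test at 24 h called 0 of 16, where 3.14% of all were called. In it 2 had an unadjusted p under 0.05, DSG2 (F-test adjusted p = 0.255) and PKP2 207717_s_at (F-test adjusted p = 0.278).

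**Figure D3:**
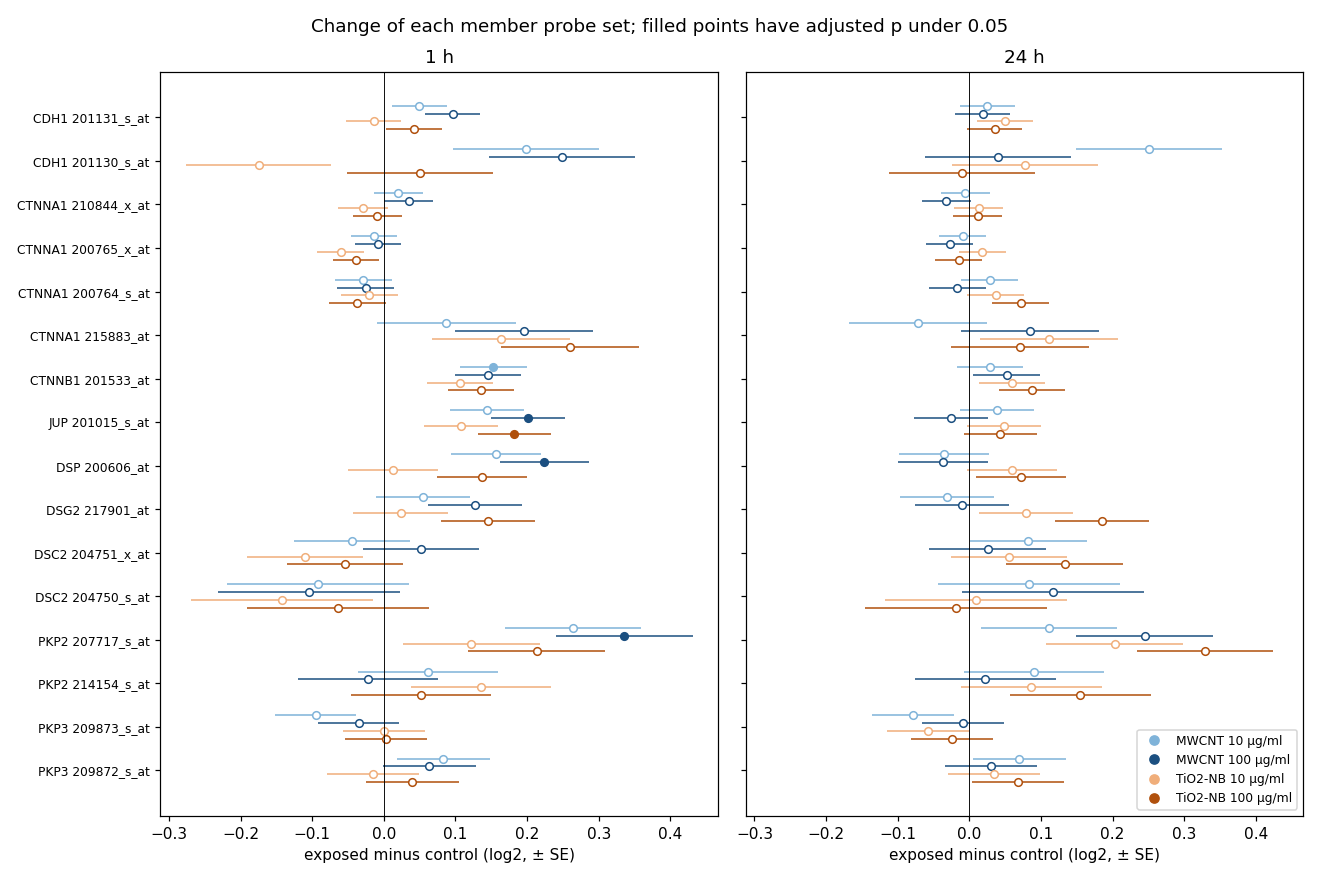
Difference from the control of the same time (log2) of the 16 member probe sets in the 8 exposed groups, with the standard error from limma as bars. Filled points have an adjusted p under 0.05; the 5 filled points all lie above zero in the groups of 1 h, and none of the groups of 24 h holds one.

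Time in medium alone called DSP and no other member. That was 1 of 16, where 18.1% of all probe sets were called between the controls of 24 h and 1 h. The median of the members was -0.020 and that of all probe sets 0.0056. JUP differed by -0.06 ± 0.051 (adjusted p = 0.514), PKP2 207717_s_at by -0.11 ± 0.095 (adjusted p = 0.498) and CDH1 201131_s_at by 0.02 ± 0.039 (adjusted p = 0.733).

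The dose comparisons asked whether 100 µg/ml differed from 10 µg/ml. No member was called in limma: 0 of 16 for MWCNT at 1 h and at 24 h and for TiO2-NB at 1 h, where 0% of all probe sets were called each time, and 0 of 16 for TiO2-NB at 24 h, where 1.83% were. An unadjusted p under 0.05 was found for 0, 1, 1 and 0 of 16 (MWCNT 1 h, MWCNT 24 h, TiO2-NB 1 h, TiO2-NB 24 h). For TiO2-NB at 1 h 14 of 16 differences were above zero, with a median of 0.056 against -0.0037 over all probe sets. The largest was CDH1 201130_s_at at 0.23 ± 0.102 (adjusted p = 0.765). For MWCNT at 1 h 12 of 16 were above zero, with DSP at 0.07 ± 0.063 and JUP at 0.06 ± 0.051. The JUP interval there, from -0.05 to 0.16, does not show that the doses acted alike.

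MWCNT and TiO2-NB were compared at equal dose and time. No member was called in limma in the 4 comparisons: 0 of 16 at 10 µg/ml and 1 h, where 0.0675% of all were called, 0 of 16 at 100 µg/ml and 1 h (0%), 0 of 16 at 10 µg/ml and 24 h (0.0315%) and 0 of 16 at 100 µg/ml and 24 h (2.88%). An unadjusted p under 0.05 was found for 2, 0, 0 and 2 of 16. CDH1 201130_s_at was 0.37 ± 0.102 higher with MWCNT than with TiO2-NB at 10 µg/ml and 1 h (adjusted p = 0.138), and all arrays of the groups were apart, as they were for the higher side in 4 of 16 members and 8.53% of all. DSP differed there by 0.14 ± 0.063 (adjusted p = 0.318). At 24 h and 100 µg/ml 12 of 16 differences were below zero, that is, lower with MWCNT, and 4 of 16 had all MWCNT arrays below all TiO2-NB arrays, against 11.8% of all probe sets.

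**Figure D4:**
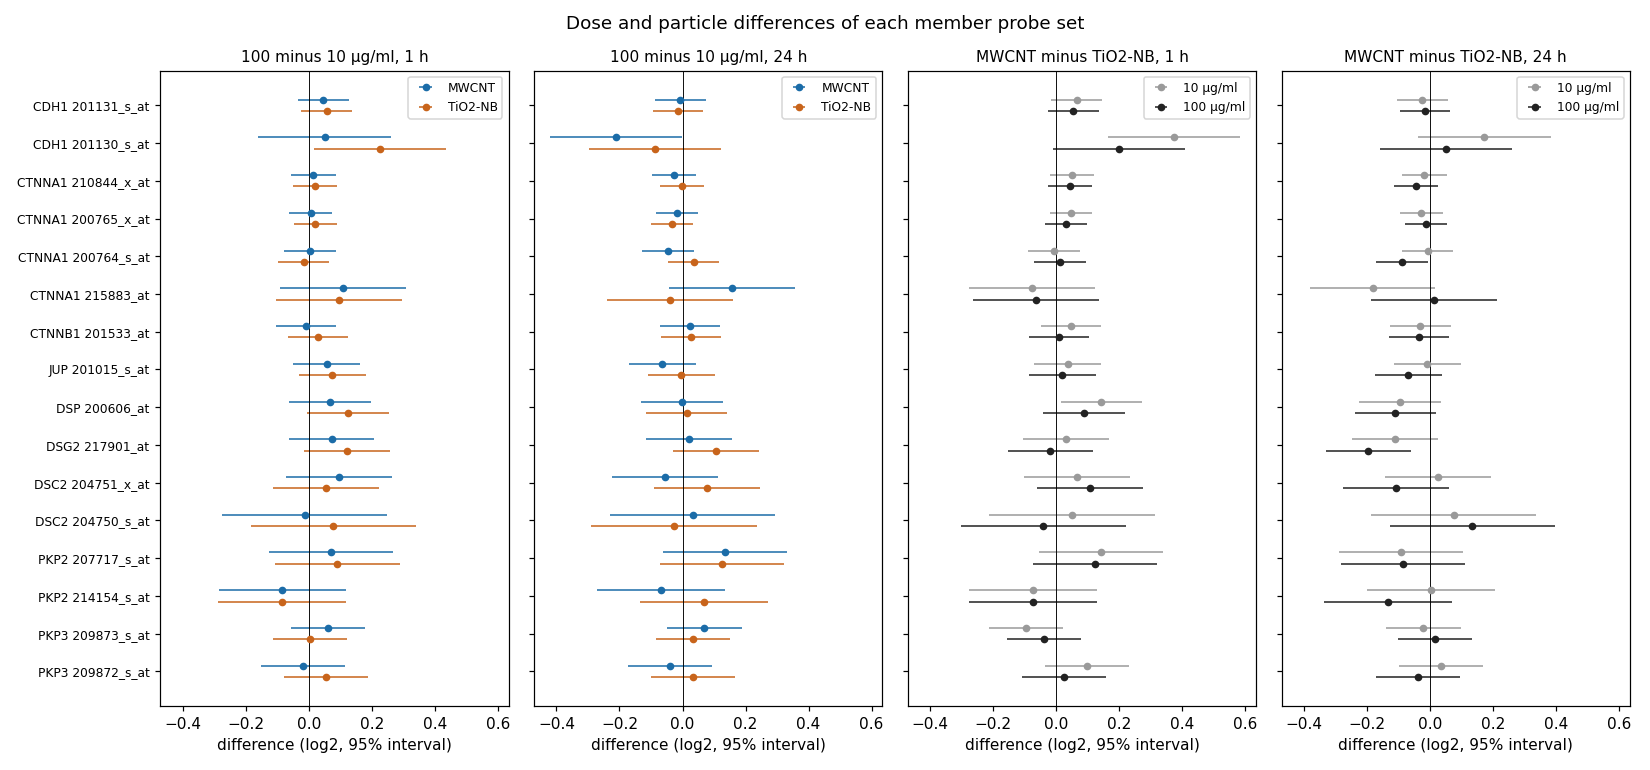
Differences (log2) of the member probe sets between 100 and 10 µg/ml of the same particle and time, and between MWCNT and TiO2-NB of the same dose and time, with 95% confidence intervals from limma. No point has an adjusted p under 0.05; the furthest from zero is CDH1 201130_s_at for MWCNT against TiO2-NB at 10 µg/ml and 1 h (0.37).

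Whether an exposure acted differently at 24 h than at 1 h was tested as an interaction. No member was called in limma: 0 of 16 with MWCNT at 10 and 100 µg/ml (1.79% and 2.71% of all were) and 0 of 16 with TiO2-NB at 10 and 100 µg/ml (3.83% and 5.84%). An unadjusted p under 0.05 was found for 1, 2, 0 and 0 of 16. The 2 at MWCNT 100 µg/ml were JUP, whose difference from control was 0.23 ± 0.073 smaller at 24 h (value -0.23, adjusted p = 0.0949), and DSP (-0.26 ± 0.089, adjusted p = 0.118). The effects at 1 h and at 24 h are thus not shown to differ.

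The genes whose 10 group means ran most like those of a member were listed for the 3 members with the smallest F-test p, over 11962 other genes and with no test. For JUP they were USB1 (r = 0.99), PER2 (r = 0.99) and BTBD3 (r = 0.98). For DSP they were PIK3C2A, LY75 and SEC24A (r = 0.98 each), and for CDH1 201130_s_at HSP90B1 (r = 0.90), GOLIM4 (r = 0.86) and POLH (r = 0.85). The points share their arrays, and each r is over 10 group means. The group means spread over 0.54 for PER2 and over 0.23 for USB1.

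The other genes of the pathway were read through 1 probe set each, as counts over the whole test. Of 24 measured adherens junction partners, 2 rose with MWCNT at 10 µg/ml for 1 h, 1 with MWCNT at 100 µg/ml, 3 with TiO2-NB at 10 µg/ml and 1 with TiO2-NB at 100 µg/ml, and none fell. Of all 11963 genes 2.71%, 3.79%, 3.02% and 3.07% rose. PTPN1, the phosphatase PTP1B, which dephosphorylates beta-catenin at cadherin complexes, rose in each. It read 8.88, 8.99 and 8.92 in 1 h controls, 9.31, 9.29 and 9.25 with MWCNT at 10 µg/ml, and 9.34, 9.34 and 9.19 with TiO2-NB at 100 µg/ml. The differences were 0.35, 0.34, 0.34 and 0.36 (each ± 0.052, highest adjusted p = 0.000222), and at 24 h they were between -0.05 and 0.01.

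NECTIN2, an immunoglobulin-like adhesion receptor of the adherens junction, rose by 0.14 ± 0.034 with MWCNT (adjusted p = 0.0148) and by 0.16 ± 0.034 with TiO2-NB (adjusted p = 0.00388), both at 10 µg/ml for 1 h. CTNNAL1, a relative of alpha-catenin, rose by 0.19 ± 0.053 with TiO2-NB at 10 µg/ml (adjusted p = 0.0261). At 24 h 1 partner fell, WASL (N-WASP, an activator of branched actin assembly), with TiO2-NB at 100 µg/ml, where 2.3% of all genes fell. WASL read 5.46, 4.84 and 4.46 there against 6.27, 6.54 and 6.51 in controls, well apart, and its fall by 1.52 ± 0.216 (2.87-fold, adjusted p = 4.11e-05) compares with 0.34 for the largest call of a member. No partner was called in limma in the other 24 h groups (0, 1 and 2 of 24 had an unadjusted p under 0.05), where of all genes 0% were called with MWCNT at 10 µg/ml, 0.00836% fell with MWCNT at 100 µg/ml, and 0.0167% rose and 0.0334% fell with TiO2-NB at 10 µg/ml.

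Of 11 desmosome partners 0 were called with MWCNT at 10 µg/ml for 1 h (1 had an unadjusted p under 0.05 in limma), where 2.71% of all genes rose and 5.15% fell. With MWCNT at 100 µg/ml PERP, a tetraspan protein needed for desmosome assembly, rose by 0.15 ± 0.043 (adjusted p = 0.0311), where 3.79% of all genes rose. PKP4, an armadillo relative of p120-catenin, fell by 0.17 ± 0.047 with TiO2-NB at 10 µg/ml (adjusted p = 0.0281) and by 0.23 ± 0.047 at 100 µg/ml (adjusted p = 0.00241), where 6.5% and 7.44% of all genes fell. CDSN, the corneodesmosome protein of skin, rose by 0.31 ± 0.086 with TiO2-NB at 10 µg/ml (adjusted p = 0.0273), where 3.02% of all genes rose. At 24 h none of the 11 was called in any group (0, 1, 1 and 0 had an unadjusted p under 0.05).

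Some desmosome partners also changed with time in medium alone. From 1 h to 24 h 5 of 11 rose, 0 fell and 6 were not called, where 8.79% of all genes rose and 12.3% fell. They were PKP4 (0.28 ± 0.047, adjusted p = 0.000132), PERP (0.25 ± 0.043, adjusted p = 0.000142), DST (0.31), CDSN (0.28 ± 0.086, adjusted p = 0.0269) and the plakin PPL (0.23). PERP read 11.15, 11.09 and 11.10 in the controls of 1 h and 11.37, 11.37 and 11.36 in those of 24 h. The median of the list was 0.17 against 0.0056 for all genes. In the other lists the same comparison gave 1 gene that rose and 4 that fell of 24 adherens junction partners, and 2 and 2 of 9 keratins and linkers. It gave 3 and 1 of 19 genes of cadherin transcription and turnover and 3 and 3 of 25 of the beta-catenin pathway. Among these PTPN1 fell by 0.27 ± 0.052 (adjusted p = 0.000502), NECTIN2 fell by 0.18 ± 0.034 (adjusted p = 0.000498), and PLEC and EPPK1 rose by 0.26 and 0.19 (adjusted p = 0.0185 and 0.0249).

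Of 9 keratins and linker genes, 1 rose with MWCNT at 10 µg/ml for 1 h and 2 rose in each of the other 1 h groups, and none fell. Of all genes 2.71%, 3.79%, 3.02% and 3.07% rose and 5.15%, 5.65%, 6.5% and 7.44% fell. EPPK1 (epiplakin, which binds keratin) rose in each, by 0.24, 0.41, 0.24 and 0.24 (each ± 0.059, highest adjusted p = 0.0166). It read 7.31, 7.25 and 7.20 in controls and 7.68, 7.58 and 7.72 with MWCNT at 100 µg/ml. PLEC (plectin, which ties keratin to other filaments) rose by 0.38 ± 0.075 with MWCNT (adjusted p = 0.00235) and by 0.30 ± 0.075 with TiO2-NB (adjusted p = 0.0118), both at 100 µg/ml. KRT8, the keratin of simple epithelia, rose by 0.14 ± 0.043 with TiO2-NB at 10 µg/ml (adjusted p = 0.042). At 24 h none of the 9 was called (1, 3, 0 and 1 had an unadjusted p under 0.05 in limma). The shares of all genes at 24 h are those given for the desmosome partners.

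Among 19 genes of cadherin transcription and turnover more calls at 1 h were lower than higher, as they were over all genes. With MWCNT 1 fell at 10 µg/ml and 1 at 100 µg/ml, where KLK6 rose, and with TiO2-NB 2 fell at 10 and 3 at 100 µg/ml. Of all genes 5.15%, 5.65%, 6.5% and 7.44% fell and 2.71%, 3.79%, 3.02% and 3.07% rose in these groups. GRHL2, a grainyhead factor that activates CDH1, read 7.35, 7.49 and 7.59 in 1 h controls and 7.18, 7.12 and 7.18 with TiO2-NB at 100 µg/ml, a fall by 0.32 ± 0.054 (adjusted p = 0.00047). ESRP1, a splicing regulator of epithelial cells, fell by 0.20 ± 0.048 with MWCNT at 10 µg/ml (adjusted p = 0.0105) and by 0.22 ± 0.048 and 0.19 ± 0.048 with TiO2-NB at 10 and 100 µg/ml (adjusted p = 0.00462 and 0.0146). CDX2, the intestinal homeobox factor, fell by 0.24 ± 0.057 with MWCNT at 100 µg/ml (adjusted p = 0.00922), and TCF3, an E-box binding factor, by 0.19 ± 0.055 with TiO2-NB at 100 µg/ml (adjusted p = 0.0297). At 24 h ELF3, an epithelial ETS factor, fell with TiO2-NB at 100 µg/ml, reading 9.03, 8.90 and 8.69 against 9.30, 9.35 and 9.23 in controls (-0.42 ± 0.061, adjusted p = 4.47e-05). In that group 2.3% of all genes fell. The bright CDH1 probe set differed from control by 0.04 with TiO2-NB at 100 µg/ml at both times. There the dimmer one had means of 8.01 at 1 h and 7.89 at 24 h, against 7.96 and 7.90 in controls. With TiO2-NB at 10 µg/ml for 1 h both had their lowest difference, -0.014 for the bright and -0.17 for the dimmer one. Of 8 differences 7 and 6 were above zero, and none was called. Whether CDH1 follows these factors was not tested.

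The beta-catenin pathway and its targets, 25 genes, were read the same way. At 1 h MWCNT gave 1 gene that rose and 2 that fell at the lower dose and 5 and 1 at the higher, and TiO2-NB gave 2 and 3 at either dose. Of all genes 2.71%, 3.79%, 3.02% and 3.07% rose and 5.15%, 5.65%, 6.5% and 7.44% fell in these 4 comparisons. MYC, a target of beta-catenin and of many other inputs, rose by 0.31, 0.44, 0.41 and 0.36 (each ± 0.060, highest adjusted p = 0.0025). RNF43, a ligase that removes Wnt receptors and is itself a target, fell by 0.28, 0.22, 0.17 and 0.22 (each ± 0.049, highest adjusted p = 0.0293). TCF7L2, the main TCF partner of beta-catenin in the gut, read 11.64, 11.58 and 11.54 in controls and 11.10, 11.25 and 11.27 with TiO2-NB at 10 µg/ml, a fall by 0.38 ± 0.059 (adjusted p = 0.000193). The co-receptor LRP6 rose by 0.54 ± 0.110 with MWCNT at 100 µg/ml (adjusted p = 0.00295). Its relative LRP5 rose by 0.25 ± 0.066 with TiO2-NB at 100 µg/ml for 24 h (adjusted p = 0.0287), the only call among the 25 at 24 h in limma (2, 5, 3 and 6 had an unadjusted p under 0.05). In the group of that call 0.853% of all genes rose.

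**Figure D5:**
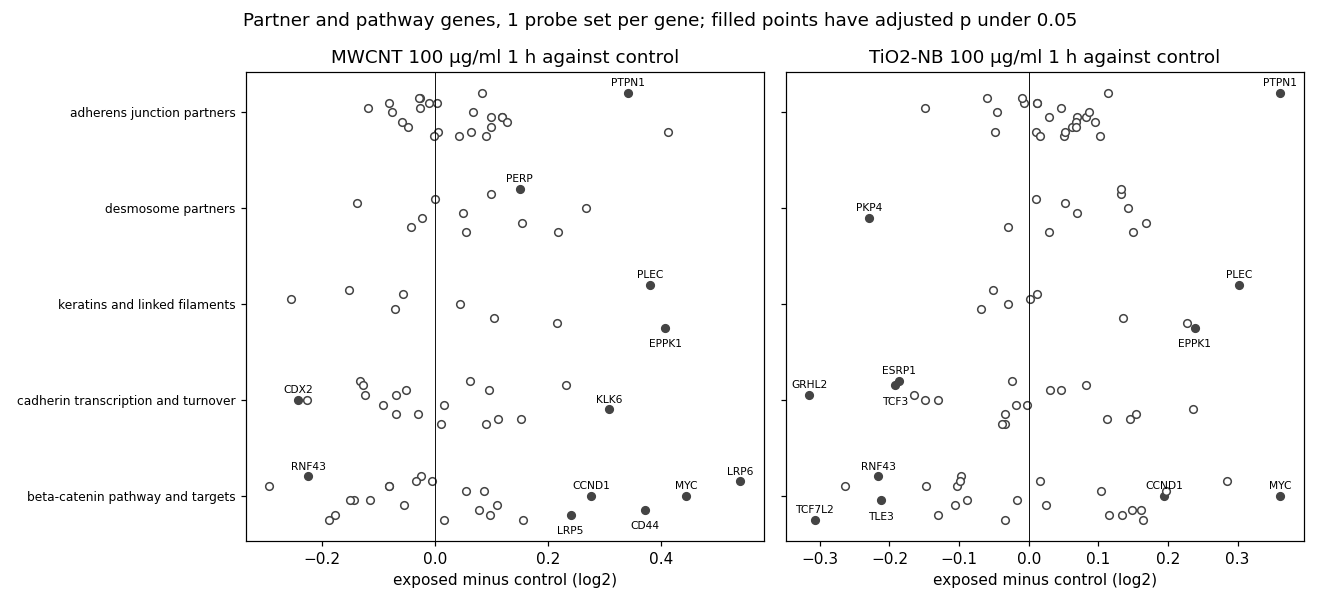
Difference from control at 1 h (log2, horizontal axis) of the genes of the 5 lists, 1 probe set per gene, with MWCNT and with TiO2-NB at 100 µg/ml. Filled and named points have an adjusted p under 0.05 (limma); PTPN1, EPPK1, PLEC and MYC are filled on the higher side with both particles, and RNF43 on the lower side with both.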

How the data were processed

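The authors deposited log2 levels of probe sets on 30 Affymetrix arrays, made with RMA (background correction, quantile normalisation, median polish), per the submitters' processing notes. Neither an RMA version nor a chip definition is given in the sources used here. Quantile normalisation makes every difference relative to the other transcripts of the array. Values were used as deposited. Leaving out 62 control probe sets gave 22215 tests. Symbols came from the platform annotation, only where a probe set carries 1.

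Group means were fitted to all 30 arrays with lmFit and eBayes (limma 3.58.1, R 4.3.3; 20 residual and 3.68 prior degrees of freedom), two-sided, and p-values were adjusted by Benjamini-Hochberg across all probe sets of a comparison. Nothing in the labels says that replicates came from separate cultures beyond calling them biological, so p-values measure the spread between these samples, and the number of arrays limits the precision. 18S, 28S and the GAPDH and ACTB end probe sets served as signs of RNA quality, compared by exact two-sided permutation tests. Promoter windows are from RefSeq (GRCh38.p14). The code was tested on simulated data.

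The members and all lists were chosen with earlier results of these data known. The rule for names prints array values for each called member probe set and for the brightest probe set of the other members, and names from each list up to 4 called genes with the smallest p at each time. DST, PPL and KLK6 fall outside it and were named after their values were seen. As alternatives each array was left out in turn, the fit was limited to the groups compared, and replicate numbers were entered as a block. Other fits used array weights, robust variances with an intensity trend, renewed quantile normalisation, the brightest probe set of each gene, or no probe sets from the lowest 1 in 3. The 18S covariate was added after seeing the data.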

Additional observations from a re-analysis of the deposited data

Results flagged for a closer look

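No member probe set passed the test that its response to exposure differed between 24 h and 1 h, but partner genes did (limma interaction, response at 24 h minus response at 1 h, log2). With MWCNT at 10 µg/ml these were PTPN1 (-0.38, adjusted p = 0.00771), MYC (-0.36, adjusted p = 0.0256) and RNF43 (0.31, adjusted p = 0.0216). With MWCNT at 100 µg/ml they were EPPK1 (-0.58, adjusted p = 0.000329), MYC (-0.52, adjusted p = 0.00121), PLEC (-0.50, adjusted p = 0.0116) and PTPN1 (-0.39, adjusted p = 0.00472). Each had risen or fallen at 1 h and had a difference of the opposite sign or nearer to zero at 24 h.

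With TiO2-NB at 10 µg/ml the difference was -0.34 for PTPN1 (adjusted p = 0.00983), -0.58 for LRP6 (0.0346), -0.44 for CDSN (0.0409), -0.29 for EPPK1 (0.0499) and -0.30 for MYC (0.0478). It was above zero for PKP4 (0.27, adjusted p = 0.0199), ESRP1 (0.26, adjusted p = 0.0328) and TCF7L2 (0.40, adjusted p = 0.00699).

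With TiO2-NB at 100 µg/ml WASL had the largest of these values (-1.57, adjusted p = 0.0023), followed by LRP6 (-0.66, adjusted p = 0.01), EPPK1 (-0.40, adjusted p = 0.00394), ELF3 (-0.39, adjusted p = 0.00622) and PTPN1 (-0.35, adjusted p = 0.00484). Above zero were TCF7L2 (0.41, adjusted p = 0.00348), GRHL2 (0.37, adjusted p = 0.00394), RNF43 (0.30, adjusted p = 0.0102) and PKP4 (0.25, adjusted p = 0.0241). WASL and ELF3 were called against control at 24 h and the other genes at 1 h, apart from LRP6, which was called at neither time with TiO2-NB (0.29, adjusted p = 0.117, at 1 h and -0.38, adjusted p = 0.058, at 24 h and 100 µg/ml).

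The 18S ribosomal RNA probe sets lie outside the tested members. At 1 h their mean was higher on every exposed array than on every control in several groups. These were MWCNT at 10 µg/ml (by 0.68), MWCNT at 100 µg/ml (by 0.93) and TiO2-NB at 100 µg/ml (by 0.43), each with an exact permutation p of 0.1. With TiO2-NB at 100 µg/ml the margin was narrow (lowest exposed array 8.501, highest control 8.494). There the 3′ and middle 18S probe sets overlapped the controls (by 0.085 and 0.42). In these groups the mean of the 28S probe sets differed by 0.14, 0.20 and 0.11, and stood above all controls with MWCNT at both doses. The single 28S probe sets did not move together. The 5′ one was above all controls in each of these groups (by 0.47, 0.65 and 0.34). The middle one was below all controls at 100 µg/ml (by -0.14 with MWCNT and -0.11 with TiO2-NB) and overlapped them with MWCNT at 10 µg/ml. The 3′ one overlapped the controls in each. With TiO2-NB at 10 µg/ml the 28S mean was above all controls as well (by 0.20, exact permutation p = 0.1), while 18S overlapped. The 5′ probe set of 18S moved more than the 3′ one with MWCNT (1.17 against 0.17 at 10 µg/ml, 1.51 against 0.29 at 100 µg/ml). The 3′ minus 5′ differences of GAPDH and ACTB moved by at most 0.044 in size in these groups (ACTB, -0.044 with TiO2-NB at 100 µg/ml). The levels of some end probe sets did stand above all controls at 1 h. ACTB 3′ did so with MWCNT at 10 and 100 µg/ml (by 0.11 and 0.10) and with TiO2-NB at 10 and 100 µg/ml (by 0.094 and 0.11). So did ACTB 5′ with MWCNT at 10 µg/ml (by 0.13), GAPDH 5′ with TiO2-NB at 10 µg/ml (by 0.028) and both GAPDH ends at 100 µg/ml (3′ by 0.049, 5′ by 0.061). The part of 18S in the member calls at 1 h was looked at only by the covariate fit.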

How the results depend on the processing

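No called difference or count reversed under the alternatives run. The number of called member probe sets with MWCNT at 10 µg/ml for 1 h was 1; it was 0 in a fit of the compared groups only, with the replicate block, with array weights or with the 18S covariate, and 2 with an intensity trend. With MWCNT at 100 µg/ml it was 3, against 0 with the compared groups only or the 18S covariate, and 5 with the trend. With TiO2-NB at 100 µg/ml it was 1 at 1 h, against 0 with the compared groups only or the covariate, and 2 with the filter on low levels or the trend; at 24 h it was 0, against 1 with the filter or trend and 2 with array weights. Particle comparisons gave 0, but 1 with array weights, and interactions 0, but 1 with array weights or the trend. Leaving out each array gave 0 to 1, 0 to 3, 0 to 1 and 0 to 2 calls at 1 h, 0 to 1 with TiO2-NB at 100 µg/ml for 24 h, and the main count elsewhere. The smaller fit has fewer arrays behind its spread (112 calls over all probe sets with MWCNT at 100 µg/ml for 1 h, against 1729); the cause was not tested for the rest. All alternatives kept DSP in the control time comparison. Same-numbered arrays showed no clear shared deviation (r from -0.28 to 0.21, median 0.008, over 135 pairs, 18 of them over 0.1). Arrays of different numbers had a median of -0.0058 over 270 pairs, 25 of them over 0.1. These values do not settle whether a number marks a shared batch. The replicate block moved 1 call, CTNNB1 (adjusted p = 0.0537). Signal over background limits the dim probe sets of DSC2 and PKP2.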
